A study of Mus musculus with 6 samples.

Results

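HOX genes encode homeodomain transcription factors and lie in 4 clusters, Hoxa to Hoxd, in which the order of the genes follows the position along the head-to-tail axis at which each is used in the embryo. Low paralog numbers act in anterior regions and high numbers in posterior ones, and genes of the same number in different clusters are the closest relatives. Once set, the pattern is held by Polycomb repressors and MLL-type activators of chromatin, so that adult gut cells carry a HOX pattern related to their position. To describe this pattern in an L-cell line, all probes whose symbol is a HOX gene name (the letters A to D and a number) were taken from the array table. The rule found 57 of 45281 probes, and these represented all 39 mouse HOX genes, of which 26 had 1 probe and 13 had between 2 and 4. The table names 28902 genes or transcripts in all.

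mGLUTag cells are an immortalized murine L-cell line that was derived from a colonic tumor of a mouse with the large T antigen under the proglucagon promoter, so that all samples share 1 transformed line. All cells had been starved in low serum, synchronized with forskolin, an activator of adenylyl cyclase, and returned to growing medium. Total RNA was taken at 4 h (n = 3) or 16 h (n = 3), the peak and the trough of Arntl mRNA, and there was no unsynchronized group. Nothing in the labels tells if the 3 samples of a group were separate cultures, and the p-values thus measure only the spread between these samples, which may be technical.

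Each sample was hybridized to 1 array. The deposited intensities had background subtracted and were not normalized between arrays, and each array was given a noise limit from its own below-zero values, namely the 99th percentile of their size, which came to between 9.2 and 14 intensity units. A probe above this limit on 3 or more arrays is called detected, as 38.4% of all probes were. The 4 h arrays were brighter, with a mean intensity over all probes of 322 ± 31.3 (SD, n = 3) against 236 ± 17.0 (SD, n = 3) for 16 h. Signal from ribosomal 18S RNA was high on 4 h replicates 1 and 3 and on 16 h replicate 1, where the mean normalized log2 intensity of its probes lay between 8.50 and 10.57, against 6.91 to 7.71 on the other arrays. Levels of different probes are not compared here, because probes differ in their response, and the position of each probe within its transcript was not used here.

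The cell type was checked first. Of 16 L-cell markers, 12 passed the limit on all 6 arrays, including the proglucagon gene Gcg, Insl5, a peptide of colonic L-cells, and the endocrine transcription factors Isl1, Neurod1 and Nkx2-2. Pyy, the peptide that L-cells release with GLP-1, lay above the limit on no array, and Pcsk1, the prohormone convertase that releases GLP-1, lay above it on 1 array. HOX genes are also used by mesenchyme, so fibroblast and muscle markers were examined. Of these 9 markers, 6 (Col1a2, Col3a1, Dcn, Lum, Pdgfrb and Twist1) lay above the limit on no array, and Col1a1 lay above it on all 6, with deposited intensities between 17.2 and 42.0. Their summed intensity was between 47.5 and 73.6 at 4 h and between 24.2 and 56.9 at 16 h. None of 7 measured immune and endothelial markers was detected, and of 9 absorptive and goblet cell markers only Tff3 was.

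HOX signal above background on all 6 arrays came from 3 of the 4 clusters, mainly from their middle. Of the 39 genes, 11 had a probe above the noise limit on all 6 arrays, namely Hoxa2, Hoxa4, Hoxa5, Hoxa7 and Hoxa13, Hoxb4 to Hoxb7, and Hoxc6 and Hoxc9. Another 2, Hoxa3 and Hoxd11, lay above it on 5 and 3 arrays, so that 13 genes were detected. A further 6 (Hoxa6, Hoxb3, Hoxc4, Hoxc10, Hoxc13 and Hoxd3) reached it on 1 or 2 arrays only, and 20 never did. Counted by probes, 13 of 57 (22.8%) lay above the limit on all 6 arrays, against 33.0% of all probes in the table, and counted by genes 28.2% did, against 36.0% of all gene names.

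**Figure D1:**
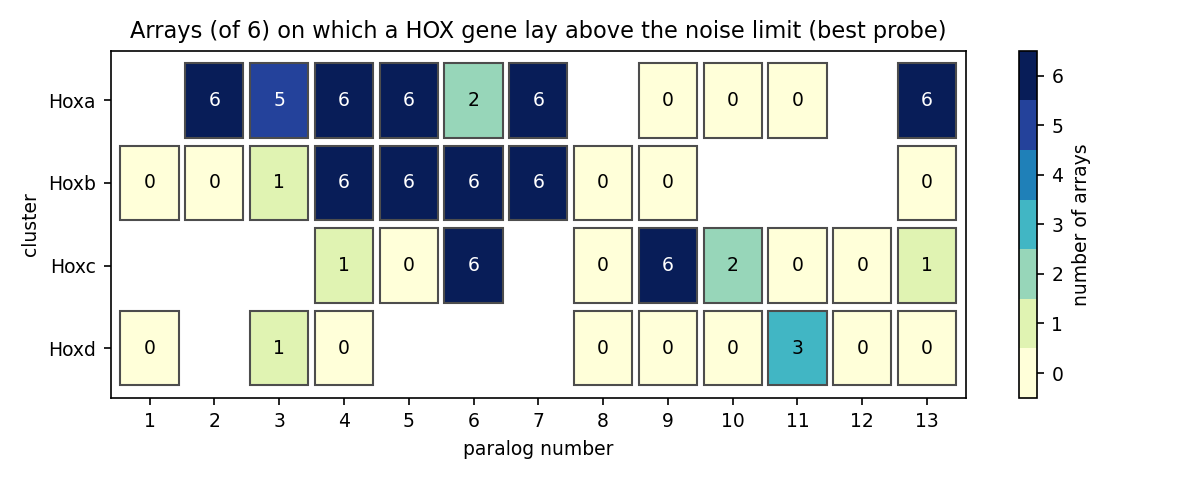
Each square is one of the HOX genes shown, placed by cluster (vertical axis) and paralog number (horizontal axis), and its colour and number give on how many of the 6 arrays its best probe lay above the noise limit. The values of 6 fall mainly in paralog numbers 4 to 7 of the Hoxa and Hoxb clusters, with Hoxa2, Hoxc6, Hoxc9 and Hoxa13 outside that block, and no Hoxd gene reaches 6, while an empty place is a gene that the mouse lacks or that is not shown.

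The clusters differed in the share of their genes above background. All 6 arrays were passed by 5 of 11 Hoxa genes, 4 of 10 Hoxb genes, 2 of 9 Hoxc genes and 0 of 9 Hoxd genes. By paralog number, 8 of the 12 genes numbered 4 to 7 did so, against 1 of 8 numbered 1 to 3 and 2 of 19 numbered 8 to 13. In the Hoxb cluster the block was unbroken, with Hoxb4, Hoxb5, Hoxb6 and Hoxb7 above the limit on all 6 arrays, Hoxb3 above it on 1 array, and Hoxb1, Hoxb2, Hoxb8, Hoxb9 and Hoxb13 on none. In the Hoxa cluster it was interrupted at Hoxa6, which lay above the limit on 2 of 6 arrays, both at 16 h (10.5 and 9.9). Its highest intensity, 10.9 on 4 h replicate 1, was below the limit of 14 on that array. These are counts of a single line with no test, and a gene below the limit was not detectable at this signal, which does not show that it is silent.

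Counts by gene rest on the best probe. Of the 13 genes with several probes, Hoxa2 and Hoxb7 had both of their probes above the limit on all 6 arrays, 9 had no detected probe, and 2 had probes that disagreed. Those 2 were Hoxa3 and Hoxa13, in each of which 1 of 3 probes was detected. A further 4 probes carry other names that RefSeq synonyms place at Hoxd11, Hoxd3os1 or Hoxa11os, the latter pair antisense transcripts of the clusters. These 4 were not members under the rule, and none lay above the limit on any array.

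The edge of the Hoxa block falls between Hoxa7, detected on every array, and Hoxa9, whose 3 probes lay between -8.2 and 6.9 on every array, although these genes are neighbors in the RefSeq gene order. Their promoter windows, from 250 bases before to 50 after the transcription start, are shown with that of Hoxa5, a detected gene within the block. The sequences are from RefSeq (GRCm38.p6, minus strand), written 5′ to 3′, and capitals mark the CG dinucleotides, the sites at which DNA can be methylated.
Hoxa5, chr6:52204538-52204837: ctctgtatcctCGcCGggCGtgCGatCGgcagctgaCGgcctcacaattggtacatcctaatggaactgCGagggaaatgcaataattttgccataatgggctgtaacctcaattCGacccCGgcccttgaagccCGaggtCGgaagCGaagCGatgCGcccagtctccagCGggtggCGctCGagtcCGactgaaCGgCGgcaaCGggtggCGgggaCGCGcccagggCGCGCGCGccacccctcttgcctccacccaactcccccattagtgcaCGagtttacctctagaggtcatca
Hoxa7, chr6:52218524-52218823: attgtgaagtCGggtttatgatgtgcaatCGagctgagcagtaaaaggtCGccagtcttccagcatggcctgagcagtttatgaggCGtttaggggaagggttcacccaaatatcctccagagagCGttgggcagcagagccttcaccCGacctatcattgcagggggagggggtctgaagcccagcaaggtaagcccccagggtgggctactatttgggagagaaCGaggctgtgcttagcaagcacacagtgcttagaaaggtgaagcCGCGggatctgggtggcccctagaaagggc
Hoxa9, chr6:52227321-52227620: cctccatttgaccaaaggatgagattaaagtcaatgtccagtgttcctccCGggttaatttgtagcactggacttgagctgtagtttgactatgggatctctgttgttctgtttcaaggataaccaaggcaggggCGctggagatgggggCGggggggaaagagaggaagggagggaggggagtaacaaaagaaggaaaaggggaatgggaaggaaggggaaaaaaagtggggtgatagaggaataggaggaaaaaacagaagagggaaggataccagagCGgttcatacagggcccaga
The window of Hoxa5 held 29 CG dinucleotides, that of Hoxa7 held 9 and that of Hoxa9 held 4. Windows rich in CG occurred in both kinds of gene, with 45 in that of Hoxa13, detected on every array, and 37 and 29 in those of Hoxd13 and Hoxd1, which passed the limit on no array.

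Windows were found for 22 of the 39 genes, 24 windows in all. The canonical E-box CACGTG, the letters that the BMAL1 and CLOCK pair is known to bind, was searched on both strands and occurred in 5 of the 24, those of Hoxd1, Hoxd4, Hoxd10, Hoxd11 and Hoxd13, against 7.15% of all 32851 windows of this length. Of these 5 genes only Hoxd11 was detected, on 3 arrays. The cAMP response element TGACGTCA, relevant to forskolin, occurred in 0 of the 24 and in 1.79% of all windows. The letters TGATNNAT, which HOX proteins bind together with PBX partners, occurred in the windows of Hoxa2, Hoxb1, Hoxb8 and Hoxd11, and in 8.85% of all windows. A match describes letters in a window and does not show that a factor binds there.

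To examine stability, the 13 detected genes were compared between 4 h and 16 h, after quantile normalization, which reports each probe relative to the others. No HOX gene passed the threshold. By limma with Benjamini-Hochberg adjustment over all 45281 probes, 0 of 57 HOX probes were called at 0.05, where 0.00883% of all probes were, and the adjusted p of the 15 detected HOX probes lay between 0.719 and 0.989. Without adjustment, 4 of the 57 had a limma p under 0.05, against 5.42% of all probes, and 2 of the 15 detected probes did, against 10.3% of all detected probes. The median log2 change (4 h minus 16 h) of the 13 genes was -0.08, against 0.0044 over the 17366 detected probes. Of the 13 changes, 11 were below 0, but with median scaling and without between-array normalization 11 and 12 were above 0, where the median of all detected probes was 0.27 and 0.36.

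**Figure D2:**
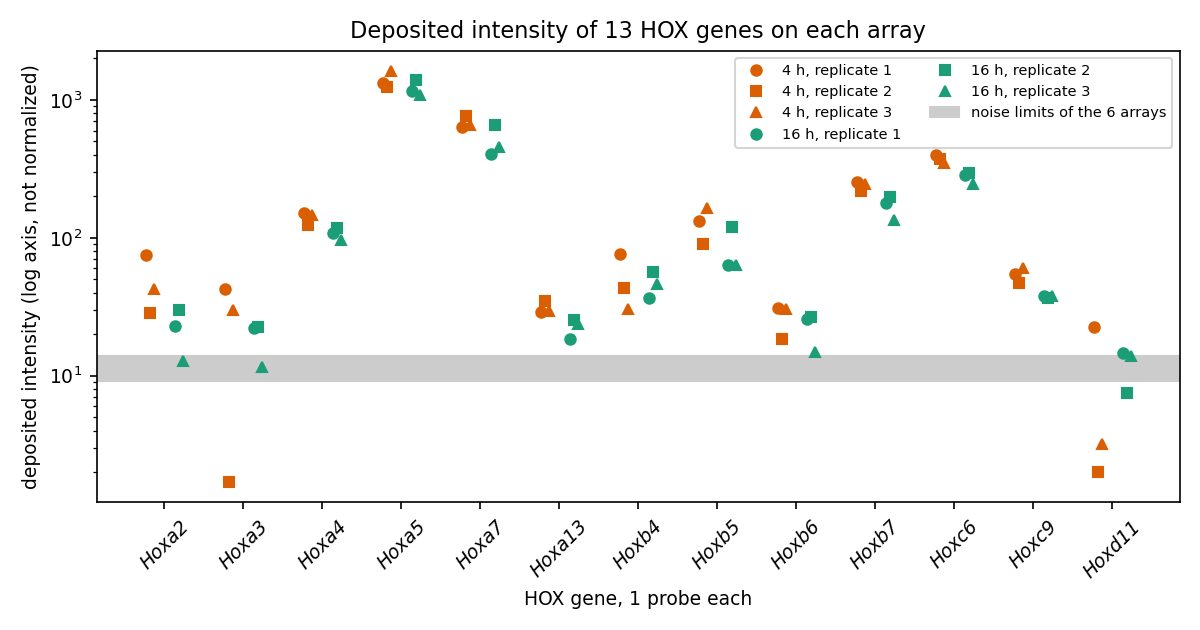
Deposited intensity (log axis, not normalized between arrays) of the 13 detected HOX genes, with 1 point per array at 4 h (orange) and 16 h (green) and a shape for each replicate number, while the gray band spans the noise limits of the 6 arrays. Hoxa5, Hoxa7 and Hoxc6 lie far above the band on every array, whereas Hoxa3 and Hoxd11 fall into or below it on some and Hoxa2 falls into it on 1 (12.8 at 16 h replicate 3).

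The anterior members lay near the noise limit. Hoxa2, which patterns the second pharyngeal arch, had at its brighter probe deposited intensities of 75.2, 28.4 and 42.6 on the 4 h arrays against 23.0, 30.0 and 12.8 on the 16 h arrays, and at its other probe 49.4, 34.0 and 41.2 against 23.7, 15.8 and 17.9. The first probe overlapped between the time points, and the other was higher on every 4 h array. The log2 changes were 0.19 (95% interval -0.05 to 0.43, limma adjusted p = 0.924) and 0.17 (0.015 to 0.33, limma adjusted p = 0.883), and neither passed the threshold. Without 4 h replicate 1, the highest array at the brighter probe, its change was 0.088. The deposited 4 h to 16 h ratio of the probes was 2.22 and 2.17, whereas the median over all detected probes was 1.47. Hoxa3, required for the thymus and parathyroid, had intensities of 42.5, 1.7 and 30.1 on the 4 h arrays against 22.3, 22.4 and 11.6 on the 16 h arrays at its brightest probe. Replicate 2 at 4 h was the only array below its limit. The log2 change was -0.09 (SE 0.130, limma adjusted p = 0.976) and was 0.07 without that array, on which the direction therefore rested.

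Hoxa4, Hoxa5 and Hoxa7 form the detected center of the Hoxa cluster, with Hoxa6, above the limit on only 2 arrays, between them. Hoxa4, a trunk-patterning gene, had intensities of 151.1, 124.0 and 146.2 on the 4 h arrays against 107.6, 118.6 and 96.5 on the 16 h arrays, and the fitted log2 change came to -0.13 (SE 0.070, limma adjusted p = 0.924). Every array at 4 h was above every array at 16 h in the deposited values, as in 7 of the 15 detected HOX probes and 44.5% of all detected probes, and the times overlapped after normalization. Hoxa5, which is required in lung and gut development, had intensities of 1322.5, 1237 and 1613.2 on the 4 h arrays against 1154.1, 1397.7 and 1092.8 on the 16 h arrays. Its deposited ratio of 1.14 was below the median of 1.47. After normalization it was at 10.28 ± 0.15 (SD, n = 3) and 10.58 ± 0.10 (SD, n = 3), the only one of the 13 genes whose time points did not overlap at the brightest probe, where 11.4% of all detected probes did not, 5.33% with 16 h higher. Its log2 change of -0.30 (95% interval -0.51 to -0.09) missed the threshold (adjusted p = 0.719 by limma), and its direction was turned by median scaling (0.10) and without between-array normalization (0.19), both below the shift of all probes.

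Hoxa7, a trunk gene whose product acts in the thoracic vertebrae, had intensities of 632.2, 760.3 and 659.8 on the 4 h arrays against 405.2, 657.2 and 459.0 on the 16 h arrays. The value of 16 h replicate 2 lay within the range of the 4 h arrays. Its log2 change of -0.06 (95% interval -0.45 to 0.32, limma adjusted p = 0.984) was 0.10 when the 18S separation of the arrays was fitted as a block, and 0.04 and 0.05 without 4 h replicate 1 and without 16 h replicate 2, so that no direction can be given. In the RefSeq annotation the span of Hoxa3 overlaps those of Hoxa4, Hoxa5 and Hoxa6, that of Hoxb3 overlaps Hoxb4, Hoxd10 overlaps Hoxd11 and Hoxd3 overlaps Hoxd4, and which transcript each of these probes reads was not tested.

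The Hoxb block was likewise without a called change. Hoxb4, known for its role in blood stem cells, had intensities of 76.2, 43.2 and 30.4 on the 4 h arrays against 36.7, 56.4 and 46.4 on the 16 h arrays, and the fitted log2 change came to -0.23 (SE 0.126, limma adjusted p = 0.924). The 4 h arrays lay both above and below those of 16 h, and the value was -0.099 without 4 h replicate 3. Hoxb5, which acts in the enteric nervous system, had intensities of 132.6, 89.9 and 165.5 on the 4 h arrays against 63.9, 119.5 and 63.3 on the 16 h arrays, and the fitted log2 change came to 0.06 (SE 0.142, limma adjusted p = 0.983), a value that was -0.03 without 4 h replicate 3 and -0.06 without 16 h replicate 1. Hoxb6, a trunk gene, had intensities of 30.9, 18.4 and 30.6 on the 4 h arrays against 25.6, 26.6 and 14.9 on the 16 h arrays, and the fitted log2 change came to -0.09 (SE 0.072, limma adjusted p = 0.959). Both genes overlapped between the time points.

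Hoxb7 was measured by a pair of probes. The brighter had intensities of 251.9, 219.1 and 244.6 on the 4 h arrays against 178.9, 196.7 and 134.6 on the 16 h arrays, and the other 190.1, 189.2 and 172.7 against 116.7, 140.8 and 90.6. Both were higher on every 4 h array before normalization, and both overlapped after it. The log2 changes of -0.05 (limma adjusted p = 0.979) and 0.08 (limma adjusted p = 0.972) were of opposite sign, each smaller than its SE of 0.079 and 0.107.

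Hoxc6 and Hoxc9 were detected, and they are not neighbors in number, since Hoxc8 between them lay above the limit on no array. Hoxc6, active in the thoracic region, had intensities of 399.8, 375.9 and 350.0 on the 4 h arrays against 283.1, 297.0 and 245.8 on the 16 h arrays, a deposited ratio of 1.36 with no overlap. Its log2 change after normalization was -0.08 (95% interval -0.30 to 0.13, limma adjusted p = 0.966). Hoxc9, which sets thoracic motor neuron identity, had intensities of 54.4, 47.1 and 60.7 on the 4 h arrays against 37.8, 36.6 and 37.7 on the 16 h arrays, and the fitted log2 change came to -0.03 (SE 0.078, limma adjusted p = 0.984). Its deposited ratio of 1.45 was close to the median of 1.47.

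The posterior members include genes that act in the hindgut of the embryo. Hoxa13, required for the hindgut and the distal limb, was above the limit at 1 of its 3 probes (ILMN_3087004), with intensities of 29.1, 34.8 and 29.6 on the 4 h arrays against 18.6, 25.4 and 23.9 on the 16 h arrays. Its other probes lay between -8.5 and 7.8 on all arrays. The log2 change of the first was -0.03 (SE 0.092, limma adjusted p = 0.989), and its value was at least 1.90 times the limit on each array. Hoxb13, a gene of the distal colon and prostate, lay between -4.0 and 3.3, Hoxc13 reached its limit on 1 array, and Hoxd13, the partner of Hoxa13 in the hindgut, lay between -0.4 and 8.6. Hoxd11, which patterns the forearm and kidney, was the only Hoxd gene above the limit on 3 arrays, with intensities of 22.7, 2.0 and 3.2 on the 4 h arrays against 14.5, 7.5 and 13.9 on the 16 h arrays. It exceeded the limit on 1 array at 4 h and 2 at 16 h, and the fitted log2 change came to -0.16 (SE 0.096, limma adjusted p = 0.942).

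**Figure D3:**
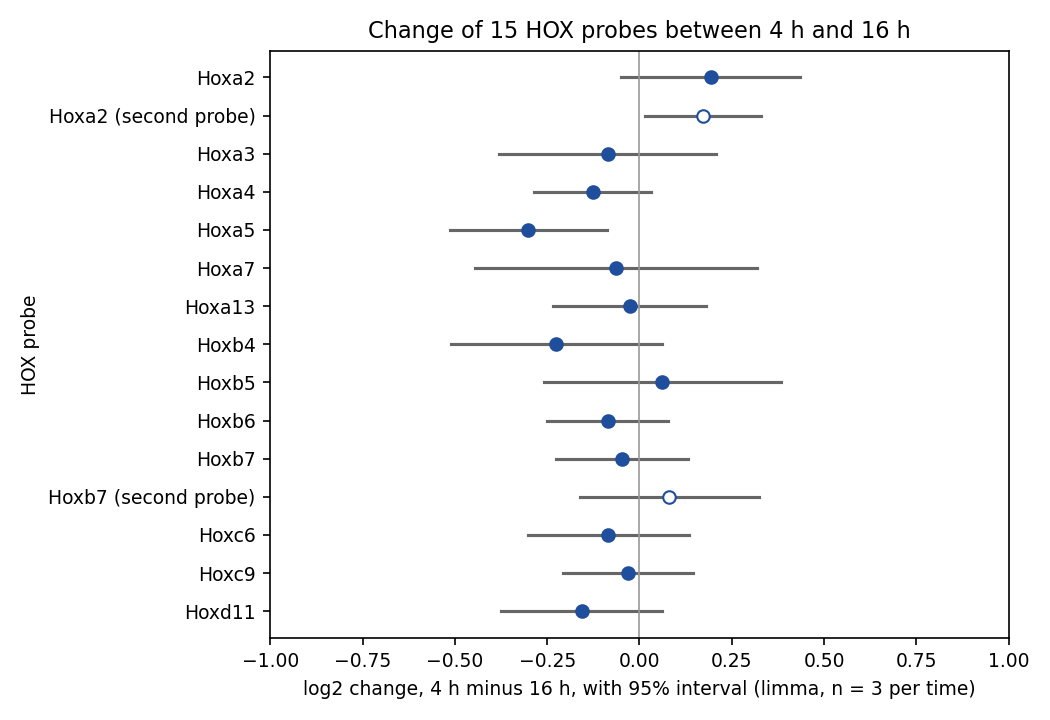
Log2 change (horizontal axis, 4 h minus 16 h) of the 15 detected HOX probes, with its 95% interval from limma (n = 3 arrays per time). Filled points are the brighter probe of a gene and open points its second probe. The changes lie between -0.30 and 0.19, and the interval end farthest from 0 lies 0.51 from it.

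On the normalized scale the bound farthest from 0 of any of the 15 intervals lay 0.51 from it, that of Hoxa5, and 13 of the 15 intervals lay within 0.5 of 0. An offset of 50 had been added, which shrinks the changes of dim probes. With an offset of 16 the changes of the 13 genes lay between -0.33 and 0.30. In the setting without background correction no offset was added either, and values below 1 were set to 1. The changes of the brightest members then moved little (Hoxa5 -0.32, Hoxa7 -0.07, Hoxc6 -0.10). Those of 5 dimmer members moved to 0.58 for Hoxa2, -0.54 for Hoxb4, -0.29 for Hoxb6, -1.0 for Hoxa3 and -1.59 for Hoxd11. Those of 2 others, also dim, stayed nearer to 0 at -0.097 for Hoxa13 and -0.072 for Hoxc9. None of these had a limma adjusted p below 0.844. In bulk samples, fewer cells that express a gene and less RNA per cell cannot be told apart.

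**Figure D4:**
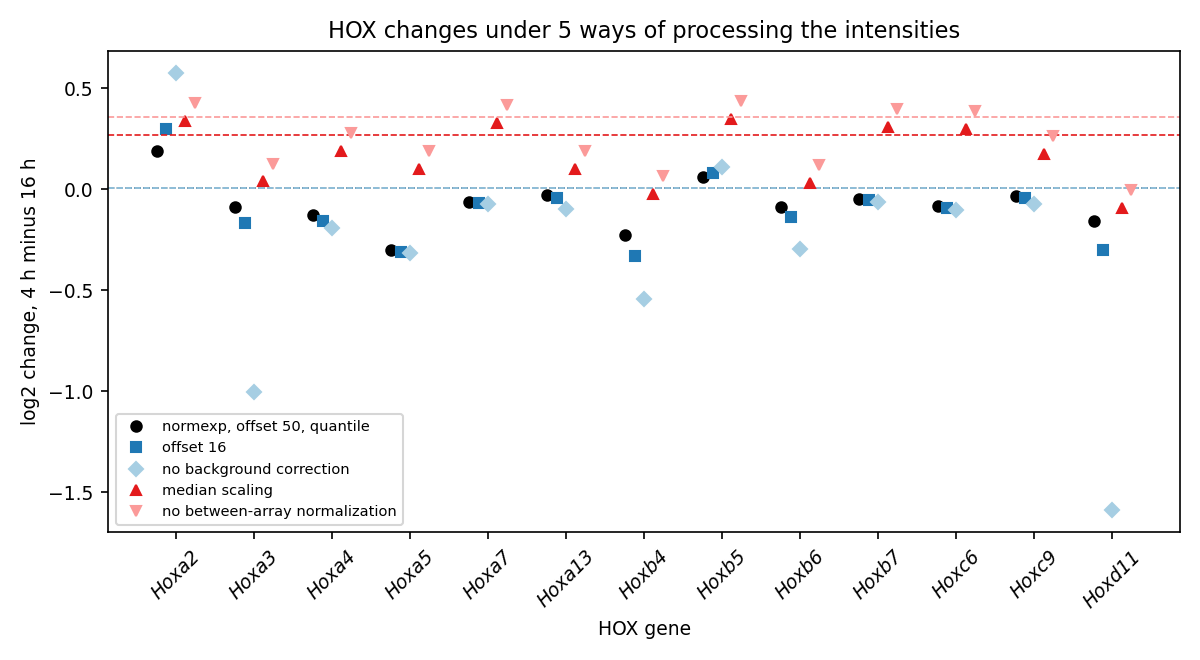
Log2 change (vertical axis, 4 h minus 16 h) of the 13 HOX genes under 5 ways of processing the intensities, given by colour and shape, with the median change of all detected probes in the same setting as dashed lines. The dim genes Hoxa2, Hoxa3, Hoxb4 and Hoxd11 spread most between the settings that differ in background correction and offset. Median scaling or no between-array normalization lifts the HOX genes together with the median of all probes.

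HOX proteins bind DNA with TALE homeodomain partners of the PBX, MEIS and PKNOX families, and 6 of 9 such genes were detected, 5 of them on all 6 arrays. None was called between the time points, and the median log2 change of the 6 was -0.13. The brightest probes of Pbx2 (log2 change -0.18, limma adjusted p = 0.920), Pbx4 (-0.17, 0.919), Pknox1 (-0.12, 0.978) and Meis3 (-0.14, 0.955) were above the limit on all 6 arrays. The other detected probes of Pbx2 were at -0.29 (3 arrays, all at 16 h) and -0.19, that of Pbx4 at -0.003 and that of Pknox1 at -0.17. Those of Meis3 were at 0.19 and -0.003, so that its probes differed in sign, and the detected probe of Pknox2 was at 0.10. Pbx3 and Meis1 lay above it on no array, Meis2 on 1 array and Pknox2 on up to 3, depending on the probe.

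Among the relatives of the HOX clusters, Cdx2, the caudal factor that specifies intestine, had intensities of 5985.1, 6511.2 and 7115.8 on the 4 h arrays against 4471.7, 4878.2 and 4000.1 on the 16 h arrays, and the fitted log2 change came to 0.12 (SE 0.110, limma adjusted p = 0.959). Pdx1, a factor of the pancreas and duodenum, was also above the limit on all 6 arrays, at 530.9, 401.9 and 563.6 against 282.5, 330.5 and 227.2. Its time points did not overlap after normalization, and its log2 change of 0.25 (SE 0.076) missed the threshold (adjusted p = 0.706 by limma). Cdx1 reached the limit on 1 array, and Cdx4, Gsx1 and Gsx2 on none.

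The genes that flank the clusters were also read. Skap2, at the anterior end of the Hoxa cluster, and Smug1, next to Hoxc4, were above the limit on all 6 arrays. Evx1, the homeobox gene beside Hoxa13, and Evx2, beside Hoxd13, lay above it on no array, as did Skap1 and Ttll6 on either side of the Hoxb cluster. Calcoco1, beside Hoxc13, and Mtx2, beside Hoxd1, passed it on 4 and 3 arrays. None was called (limma adjusted p of at least 0.810).

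Gut regional factors gave a mixed picture. Of 10 with a probe, Foxa1, Foxa2 and Hnf4a, factors of gut endoderm, were above the limit on all 6 arrays, while Sox2 of the stomach and Gata6 lay above it on none and Gata4 and Barx1 on 2 and 1. The changes of Foxa2 and Foxa1 were 0.28 (limma adjusted p = 0.624) and 0.18 (limma adjusted p = 0.919).

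**Figure D5:**
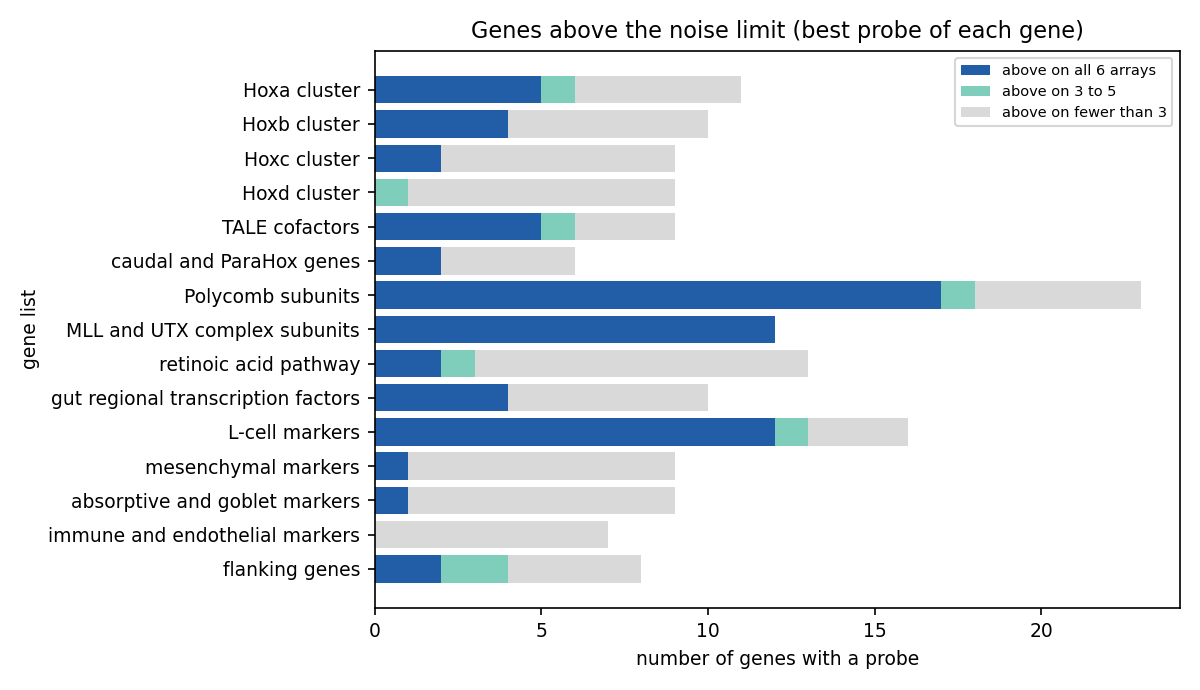
Number of genes with a probe (horizontal axis, counts from 0) in each HOX cluster and each other list, divided by whether the best probe of a gene passed the noise limit on all 6 arrays, on 3 to 5 or on fewer than 3. All 12 MLL and UTX genes and 17 of 23 Polycomb genes were above it on all 6 arrays, against 11 of the 39 HOX genes.

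The chromatin regulators that hold HOX patterns were mostly above background and had no called change. Of 23 Polycomb subunits, 17 were above the limit on all 6 arrays, with a median log2 change of -0.01 over the 18 detected. Rbbp4, a histone-binding subunit shared with other complexes, had the smallest p, with intensities of 1309.3, 1154.6 and 1142.1 on the 4 h arrays against 596.5, 568.7 and 487.4 on the 16 h arrays. Its times did not overlap, and its log2 change of 0.56 (SE 0.083) missed the threshold (adjusted p = 0.168 by limma). The changes of its other 3 probes were -0.03, 0.14 and 0.17. Cbx6 and Cbx7, readers of the repressive mark, were at -0.25 and -0.26 (limma adjusted p = 0.785 and 0.796). All 12 MLL and UTX complex genes were above the limit on all 6 arrays, with a median of -0.05 and Men1 (-0.33), Kdm6b (-0.31) and Kmt2a (-0.26) as the members with the smallest p, none called (limma adjusted p of at least 0.873). A second probe of Kmt2a, also above the limit on all 6 arrays, had the opposite sign (0.17), and a second such probe of Men1 was at -0.16.

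Retinoic acid induces anterior HOX genes in the embryo. Of 13 genes of this pathway, Rxrb and Crabp1 lay above the limit on all 6 arrays and Rarg on 5. The retinoic acid receptors Rara and Rarb and the degrading enzymes Cyp26a1 and Cyp26b1 lay above it on none. The log2 changes of Rxrb and Crabp1 were -0.22 (limma adjusted p = 0.942) and -0.07 (limma adjusted p = 0.983).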

How the data were processed

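RNA from 6 samples of synchronized mGLUTag cells was hybridized by the authors to mouse WG-6 V2 Illumina BeadChips. The deposited table holds 1 background-subtracted intensity per probe and array for 45281 probes, on a linear scale and not normalized between arrays by the authors. Scanner software and genome build are not given in the sources used here. The methods name linear models in limma.

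Background was modelled with normexp (offset 50), followed by quantile normalization and a log2 transform, and all probes were fitted with lmFit and eBayes in limma 3.58.1 (R 4.3.3), on time alone. Two-sided p-values were adjusted over all probes (threshold 0.05), and log2 changes are 4 h minus 16 h. The number of arrays limits the precision. Symbols were matched to RefSeq (GRCm38.p6), 27760 by symbol, 7992 by a single synonym and 9529 not at all; all 57 HOX probes matched by symbol. The change of a HOX gene was that of the brightest of its probes (mean normalized log2 intensity). In the other lists it was that of the brightest detected probe of the gene. Detection of a gene was read from its best probe. The detected HOX genes, all TALE and caudal or ParaHox genes, the flanking genes and the 3 members with the smallest p among those above the limit on all arrays in each other list were named; other genes named as above or below the limit were chosen after their values were seen. Some genes that this rule would name are not reported here. The members and lists were chosen with earlier results of these data known.

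Alternatives were no background correction, an offset of 16, median scaling, cyclic loess, no between-array normalization, linear scaling of the intensities before normexp by a trimmed mean (10% from each end), a filter on dim probes, a variance trend with robust fitting, weights per array, a replicate block, omission of each array in turn, the mean over probes, other noise limits (95th percentile and the largest below-zero value) and, added after seeing the data, a block on the 18S probes. The setting without background correction had no offset, and values below 1 were set to 1. Slide and scan date are not given.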

Additional observations from a re-analysis of the deposited data

How the results depend on the processing

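No HOX probe was called under 16 of the 17 alternatives run. Among these, the fits with 1 array left out, an offset of 16, the filter on dim probes and the replicate block called 0 probes of any gene. Their 0 HOX calls therefore show nothing particular to HOX genes. Median scaling called 1.84% of all probes, and the others of the 16 called between 0.00221% and 0.0640%. Without between-array normalization 3 HOX probes were called, all higher at 4 h. They were one of Hoxb7 (log2 change 0.50), one of Hoxa2 (0.40) and that of Hoxc6 (0.39). In that setting 5.10% of all probes and 13.2% of detected probes were called, all higher at 4 h, and the median of all detected probes was 0.36. The median change of the 13 HOX genes was 0.17 with median scaling and 0.26 without between-array normalization, in which the brightness of the 4 h arrays stays in the values. With median scaling the sign also turned for Hoxa3 (0.039), Hoxa4 (0.19), Hoxa5 (0.10), Hoxa7 (0.33), Hoxa13 (0.10), Hoxb6 (0.034), Hoxb7 (0.31), Hoxc6 (0.30) and Hoxc9 (0.17), and without between-array normalization for these genes (0.13, 0.28, 0.19, 0.42, 0.19, 0.12, 0.40, 0.39 and 0.26 in the same order) and Hoxb4 (0.068). The sign turned with the 18S block, chosen after seeing the data, for Hoxa7 (0.10) and Hoxa13 (0.043), and with averaged probes for Hoxb7 (0.017), whose probes differ in sign; the 18S block also moved the median of the 13 genes to -0.03 and Hoxa3 to -0.18, and the cause was not tested.

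Leaving out 1 array gave a median between -0.10 and -0.05 and turned the sign in some fits for Hoxa3 (-0.17 to 0.074), Hoxa7 (-0.23 to 0.054), Hoxa13 (-0.10 to 0.027), Hoxb5 (-0.064 to 0.22), Hoxc6 (-0.18 to 0.0011) and Hoxc9 (-0.058 to 0.022). The count of 11 genes above the limit on all arrays was 12 without 4 h replicate 2, when Hoxa3 joined, and 11 without any other array; it was 11 at the 95th percentile, 10 at the largest below-zero value, where Hoxa2 was lost, and 13 when 3 arrays sufficed. Deviations of same-numbered arrays correlated at 0.25, 0.17 and -0.49. With 3 arrays per time these values cannot settle whether the replicate numbers mark pairs. With the replicate block 0 HOX probes were called, where 0 of all 45281 probes were. Each time point holds 1 array per replicate number, so the block cannot alter the fitted changes, and the median of -0.08 was fixed. The limma adjusted p of the 13 genes with the block lay between 0.682 and 0.988. With 1 array left out, the other 7 detected genes kept their sign, with ranges of 0.088 to 0.27 for Hoxa2, -0.16 to -0.098 for Hoxa4, -0.38 to -0.22 for Hoxa5, -0.33 to -0.099 for Hoxb4, -0.14 to -0.052 for Hoxb6, -0.10 to -0.0051 for Hoxb7 and -0.23 to -0.11 for Hoxd11. The changes of Hoxa3 and Hoxd11, which lay below the limit on some arrays, moved most without background correction.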
